A study of Mus musculus with 8 samples.

Results

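8 genes were followed across the cell types of the mouse primary visual cortex (V1): Grik1, Grik2, Grik3, Grik4 and Grik5, which encode the kainate receptor subunits, Grid1, which encodes the delta receptor subunit GluD1, and Neto1 and Neto2, which encode auxiliary proteins of kainate receptors. They were chosen by name as a receptor family and its partners, with earlier results of these data known. All 8 were present among the 26711 features of the deposited table. The data were unique molecular identifier (UMI) counts of single nuclei at postnatal day 21. Every animal was GRfl/fl, with both copies of the glucocorticoid receptor (GR) gene floxed, and had received an AAV2/5 vector at birth. In both vectors the astrocyte promoter GfaABC1D drove a recombinase and a membrane-bound EGFP (EGFP-CAAX), with the elements 4x6T and WPRE behind them. The recombinase was ΔCre, an inactive form, in GR-Con and Cre, which removes floxed DNA, in GR-KO. Mice of each genotype were reared normally (NR) or in darkness (DR), which gave 4 groups of 2 libraries, 1 male and 1 female, named here by group and sex. Wherever 2 values are given for a group, the male library comes first. Per the methods of the study, nuclei positive for a DNA dye and negative for GFP were sorted. Since this EGFP is bound to membranes, the sort need not have removed the nuclei of all cells that carried the vector. Each library came from 1 animal, so p-values rest on the spread between 2 animals of different sex in a group. A level is given in CPM, where the UMIs of a gene, summed over the nuclei of 1 cell type in 1 library, are divided by all UMIs of those nuclei. A change in the share of nuclei that hold a transcript and a change of its amount per nucleus cannot be told apart in such sums.

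Kainate receptors are glutamate-gated cation channels built as tetramers. The products of Grik1, Grik2 and Grik3 (GluK1 to GluK3) form channels by themselves, whereas those of Grik4 and Grik5 (GluK4 and GluK5) bind kainate with high affinity and need a partner from the first group. GluD1 is related to these receptors by sequence but acts mainly as a synapse organizer, by binding cerebellins that in turn bind presynaptic neurexins. Neto1 and Neto2 are single-pass membrane proteins that slow the decay of kainate receptor currents and alter their targeting. In cortex, kainate receptors are known for presynaptic and postsynaptic roles in interneurons and for modulation of excitability in pyramidal cells.

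The table held 102330 nuclei in 20 deposited cell types, with 9517 to 15161 nuclei and 168632129 to 288774016 UMIs per library. The median was 14861 to 29223 UMIs per nucleus (15884 to 29223 in NR and 14861 to 20161 in DR). In NR the medians were 17759.5 and 15884 in GR-Con and 22827.5 and 29223 in GR-KO. In DR they were 16968 and 20161 in GR-Con and 14928.5 and 14861 in GR-KO. GR-KO libraries were thus deeper than GR-Con libraries in NR and shallower in DR. The part of depth in the calls was not tested. In 15 types every library had at least 10 nuclei, namely 8 excitatory types (L2/3, L4, L5IT, L5PT, L5NP, L6IT, L6CT and L6b), the inhibitory types Pvalb, Sst, Vip and Lamp5, astrocytes (Astro), oligodendrocyte precursors (OPC) and oligodendrocytes (Oligo). In 3 libraries (NR GR-Con male, NR GR-KO male and DR GR-Con female) there were only 2 to 4 microglia (Micro), against 573 to 948 in the other 5, so calls over all 8 libraries that were lost without those 3 are named as such. Without those 3, only female libraries are left in NR and every male library left is DR. Sex was not a term in that fit, so a call lost there cannot be tied to microglia. Of 65 marker genes, 53 were highest in the type they mark, with 0 of 3 for L4 and 0 of 3 for L6IT, and these types are called by their deposited names. Of 101098 barcode sequences, 1220 occurred in more than 1 library. In astrocytes Cre was at 0 CPM in the 4 GR-Con libraries and at 4.14 to 10.4 CPM in the 4 GR-KO libraries. The feature for ΔCre was at 2.51 to 4.79 CPM in GR-Con and 2.68 to 6.96 CPM in GR-KO, so it does not tell the vectors apart. EGFP was at 9.56 to 19.3 CPM in GR-Con and 8.63 to 23.4 CPM in GR-KO astrocytes, so vector RNA was present after the sort. Nr3c1, the targeted gene, was at 207 to 263 CPM in GR-Con and 268 to 284 CPM in GR-KO astrocytes. This does not check the deletion, since the counts are not split into reads inside and outside the floxed sequence. How many of the sorted astrocyte nuclei carried the vector is not known either.

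All 8 genes are protein coding in GENCODE vM21 on GRCm38. Grik1 lies at chr16:87895900-88290265 on the minus strand, Grik2 at chr10:49094833-49788766 on the minus strand, Grik3 at chr4:125490700-125714173 on the plus strand and Grik4 at chr9:42518135-42944493 on the minus strand. Grik5 lies at chr7:25009849-25072346 on the minus strand, Grid1 at chr14:34820108-35583379 on the plus strand and Neto2 at chr8:85636588-85700924 on the minus strand. Grik2 overlaps 2 same-strand genes that are also counted, Gm26543 and Gm47018. How reads from the overlap were counted was not checked.

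Over all 8 libraries the calls of Grik4 and Grik3 were higher and those of Neto2 lower in DR. The bases before the RefSeq starts of these genes (GRCm38.p6, sense strand) are shown here, cut at the GENCODE start where that lies further upstream. Capitals mark each GGGCGG, on either strand, the letters of an Sp1 GC box.
Grik4 promoter, chr9:42944494-42944621, minus strand, 128 bases: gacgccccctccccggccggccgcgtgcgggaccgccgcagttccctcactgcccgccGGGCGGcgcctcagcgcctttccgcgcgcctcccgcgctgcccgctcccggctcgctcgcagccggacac
Grik3 promoter, chr4:125490446-125490695, plus strand, 250 bases: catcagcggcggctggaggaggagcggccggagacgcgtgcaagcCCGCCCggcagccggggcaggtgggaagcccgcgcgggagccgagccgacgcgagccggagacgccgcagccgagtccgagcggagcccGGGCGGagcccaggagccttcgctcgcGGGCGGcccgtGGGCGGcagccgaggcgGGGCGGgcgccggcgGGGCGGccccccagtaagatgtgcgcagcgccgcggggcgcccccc
Neto2 promoter, chr8:85700925-85701174, minus strand, 250 bases: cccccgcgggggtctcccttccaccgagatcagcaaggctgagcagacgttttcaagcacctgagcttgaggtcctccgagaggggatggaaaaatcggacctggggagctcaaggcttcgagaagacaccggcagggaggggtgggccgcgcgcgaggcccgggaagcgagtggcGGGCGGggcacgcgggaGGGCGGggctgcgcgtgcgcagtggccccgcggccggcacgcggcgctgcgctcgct
The 250 bases before the RefSeq start held 1 GGGCGG in Grik4, 6 in Grik3 and 2 in Neto2, and 32.7% of the 32851 promoters of the same length in the table held at least 1. The GC content of these 250 bases was 69.6% for Grik4, 82.0% for Grik3 and 72.0% for Neto2, against a median of 52.4% over the table. None of the 3 held TGACGTCA (cAMP response element, in 1.55% of all promoters), TGANTCA (AP-1, 6.75%), CACGTG (E-box, 6.02%), AGAACA (steroid receptor motif, 16.1%), GCGTGGGCG (EGR, 0.536%) or TATAAA (the TATA box, 12.4%), searched on both strands, which says only that these letters are absent from the window. RefSeq lists a second, downstream Neto2 start, which is not shown. Of the other 5, Grik2 and Grik5 are also in the promoter table, and Grik1, Grid1 and Neto1 are not. Grik5, whose calls over all 8 libraries were also higher in DR, held 2 GGGCGG at 75.2% GC. Grik2 held 0 at 62.8% GC.

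The levels by cell type are a description, since the types were found by clustering the same nuclei on their expression. They are compared between types within a gene, not between genes. Grik1 was highest in interneurons, in Lamp5 (2135 ± 315 CPM, SD, n = 8) and Sst (1792 ± 359.5 CPM), followed after a gap by Pvalb (980.2 ± 123 CPM), L5NP (887 ± 97.5 CPM), Vip (776 ± 154 CPM), OPC (474 ± 66.7 CPM) and L4 (272 ± 73.2 CPM). The ranges over 8 libraries of neighbours in that order overlapped, except between Sst and Pvalb, between L4 and Oligo (143 ± 45.1 CPM) and between Oligo and Astro (21.9 ± 7.80 CPM). In the other 6 excitatory types the mean was 3.08 to 11.9 CPM, within or under the 9.41 to 44.2 CPM of microglia in 5 libraries. The upper limit of microglia rests on NR GR-KO female alone, and the other 4 were at 9.41 to 13.3 CPM. When every nucleus was thinned to 3000 UMIs, 90.9% of Lamp5 and 41.1% of L4 nuclei had a Grik1 UMI, against 1.15% of L2/3 and 2.79% of microglia. Before thinning these shares were 99.3%, 67.7%, 7.21% and 4.61%, at median depths of 16222, 18882, 21863 and 2446.5 UMIs, and thinning left out 2953 of 3854 microglia with fewer UMIs. In the 6 pyramidal types other than L4 and L5NP the thinned share was 1.05% to 2.54%, close to that of microglia, which was 1.68% without NR GR-KO female. It is not told apart from background.

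**Figure D1:**
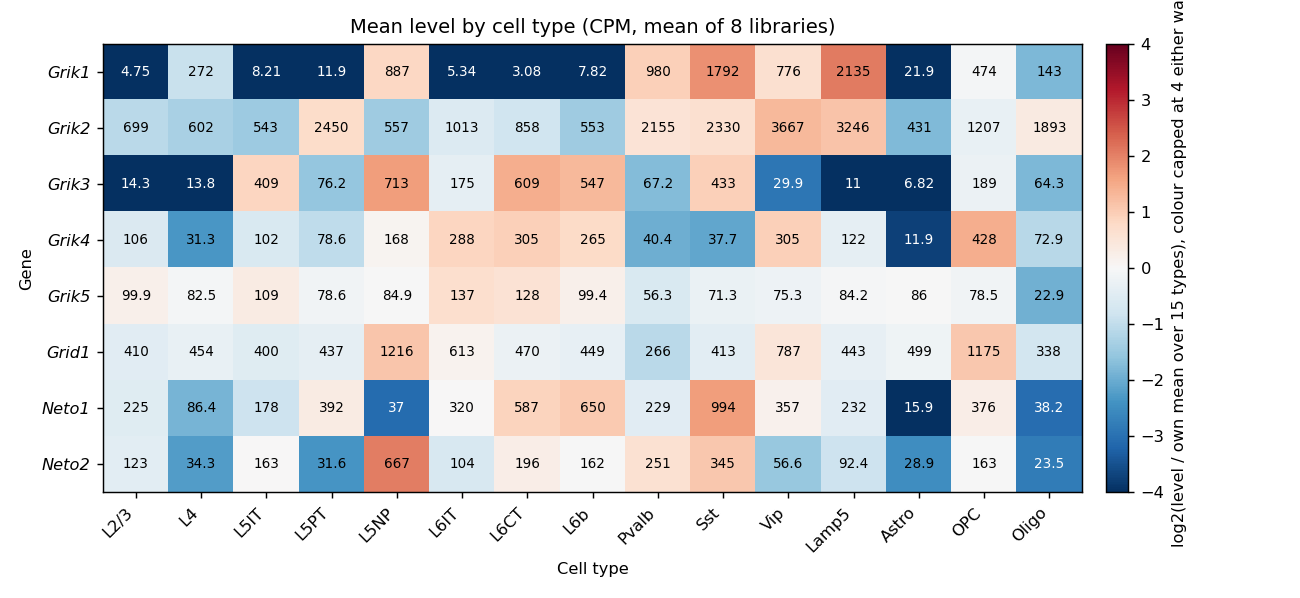
Mean level of each gene in the 15 cell types with at least 10 nuclei in every library, in CPM (numbers, mean of 8 libraries), with colour giving the log2 of the level over that gene's own mean. Colours compare types within a gene: Grik1 is high in the 4 interneuron types and L5NP, Grik3 in L5NP, L6CT and L6b, and in L5NP Neto2 is highest and Neto1 next to lowest.

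Grik2, which encodes a channel-forming subunit, was highest in Vip (3667 ± 352 CPM) and Lamp5 (3246 ± 88.5 CPM). A second set without overlap to these, L5PT (2450.3 ± 274 CPM), Sst, Pvalb and Oligo (1893 ± 101 CPM), stood above OPC and the other excitatory types, and astrocytes were lowest (431 ± 40.9 CPM). Grik3 was highest in L5NP (713 ± 129.9 CPM), L6CT (609 ± 152 CPM), L6b (547 ± 93.1 CPM), Sst (433 ± 32.5 CPM) and L5IT (409 ± 87.7 CPM), which overlapped in turn. After a gap came OPC (189 ± 21.6 CPM), L6IT, L5PT, Pvalb and Oligo, and after another gap Vip, L2/3 (14.3 ± 4.09 CPM), L4, Lamp5 and Astro (6.82 ± 2.34 CPM). Grik4 was highest in OPC (428 ± 36.0 CPM), the only type whose range met no other. Below it all neighbours overlapped, from Vip (305 ± 26.7 CPM), L6CT (305 ± 59.1 CPM) and L6IT (288 ± 47.9 CPM) to L4 (31.3 ± 20.0 CPM) and Astro (11.9 ± 3.26 CPM). Grik5 varied least among the kainate subunits, from 137 CPM in L6IT to 56.3 CPM in Pvalb over 14 types, with only Oligo (22.9 ± 4.57 CPM) outside the range of its neighbour. In astrocytes it was at 86.0 ± 6.84 CPM, within the range of the neuron types.

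Grid1 was highest in L5NP (1216 ± 155 CPM) and OPC (1175 ± 75.7 CPM), whose ranges overlapped and met no other type. The remaining 13 types overlapped in turn from Vip (787 ± 60.4 CPM) to Pvalb (266 ± 27.2 CPM), with astrocytes at 499 ± 48.4 CPM. Neto1, at chr18:86394952-86506718 on the plus strand in GRCm38, was highest in Sst (994 ± 75.4 CPM), then in L6b (649.8 ± 37.8 CPM) and L6CT (587 ± 78.0 CPM), and lowest in Oligo (38.2 ± 9.31 CPM), L5NP (37.0 ± 7.85 CPM) and Astro (15.9 ± 5.04 CPM). Neto2 was highest in L5NP (667 ± 51.3 CPM) without overlap, then in Sst (345 ± 32.5 CPM) and Pvalb (251 ± 27.0 CPM), and lowest in Vip, L4, L5PT (31.6 ± 9.37 CPM), Astro and Oligo (23.5 ± 3.26 CPM). The log2 ratio of Neto1 to Neto2 UMIs therefore ran from 3.68 ± 0.44 (SD, n = 8) in L5PT and 2.61 ± 0.49 in Vip to -0.13 ± 0.17 in Pvalb, -0.88 ± 0.35 in Astro and -4.20 ± 0.32 in L5NP. The thinned share of nuclei with a UMI in microglia, as a mean of 5 libraries, was 2.57% for Grik3, 2.64% for Grik4, 6.65% for Neto1 and 7.83% for Neto2. Single libraries, with 42 to 653 thinned microglia each, ran from 4.76% to 12.4% for Neto1 and from 4.76% to 11.8% for Neto2. The mean is therefore an uncertain limit. Grik3 in Lamp5 (1.90%) and Astro (1.98%), Neto1 in L5NP (6.22%) and Astro (4.81%) and Neto2 in Oligo (6.87%) did not exceed the microglia mean. Grik3 in L2/3 (3.30%) and L4 (3.47%), Grik4 in Astro (3.22%) and Neto2 in L5PT (7.87%), Astro (7.91%) and L4 (8.74%) were close to it, and these levels too are not told apart from background. Before thinning, Neto2 had 45.1% in L5PT and 33.8% in L4 against 7.12% in microglia. Grik3 had 12.8% in L2/3 against 3.33% in microglia. Those shares are at unlike depths and do not decide this either. Both extremes of the Neto1 to Neto2 ratio thus rest on 1 gene at or close to the microglia mean, Neto2 in L5PT and Neto1 in L5NP. In Astro both genes are at or close to that mean. Since both genes differ in length and in where their reads fall, the value of the ratio itself is not a ratio of molecules, and only its shift between types is read. Between the high-affinity subunits, the log2 ratio of Grik4 to Grik5 ran from 2.45 ± 0.14 in OPC and 2.02 ± 0.18 in Vip to -1.63 ± 0.89 in L4 and -2.90 ± 0.41 in Astro. The Astro end rests on Grik4 at a share close to the microglia mean. Here too only the shift between types is read.

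Over the 15 types, the 2 genes most alike to each of the 8 in mean log2(CPM + 1), among 11734 genes with at least 10 CPM in some type, were Tspyl4 (Pearson r = 0.92) and Kcnip1 (0.88) for Grik1, Ndst4 (0.87) and Rufy1 (0.84) for Grik2, and Ftl1-ps1 (0.96) and Cdh18 (0.79) for Grik3. They were Csmd3 (0.85) and Elfn2 (0.82) for Grik4, Cacnb1 (0.93) and Snx10 (0.92) for Grik5, Zfp560 (0.84) and Dcc (0.81) for Grid1, Nup210 (0.90) and Cntn4 (0.88) for Neto1, and Papolg (0.87) and Olfm3 (0.81) for Neto2. Among the 8 genes themselves the most alike were Grik3 and Neto2 (r = 0.69) and Grik1 and Grik2 (0.54). Ftl1-ps1 is a pseudogene whose reads may be shared with its parent, so its value is uncertain. These are descriptions over 15 types that share libraries and depth.

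The comparison of dark with normal rearing asks how visual experience before P21 changed the RNA of each cell type. Over all 8 libraries with genotype as a term, 32 of 120 gene and type pairs passed the edgeR likelihood ratio test at an adjusted p under 0.05 (26.7%, against 5.4% of all 212019 gene and type pairs tested). Of these, 25 were higher in DR (background 2.69%) and 7 lower (background 2.7%). Grik4 was higher in 7 types, Grid1 in 7, Grik3 in 5, Grik5 in 5 and Grik1 in 1, whereas Neto2 was lower in 3, Neto1 in 2, Grik1 in 1 and Grik2 in 1. The median log2 fold change over the 120 pairs was 0.17, where the median of all genes in a type lay between -0.0097 and 0.0012. The quasi-likelihood F-test of edgeR, which allows for uncertainty in the dispersion of each gene, called 22 pairs (background 3.48%) and DESeq2 36 (background 6.66%). Background shares are over genes of all levels. All types come from the same 8 animals, so agreement between types is not replication. Below, each difference is a log2 fold change ± SE with its adjusted p by the likelihood ratio test of edgeR, followed by the p of the quasi-likelihood test, adjusted in the same way. Without the DR GR-KO male library 17 of the 32 kept their call, where 2.47% of all pairs were called. Without the 3 libraries poor in microglia 18 of the 32 kept it, among 23 pairs called (5.09% of all pairs). That fit has fewer animals, and rearing is partly mixed with sex in it.

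**Figure D2:**
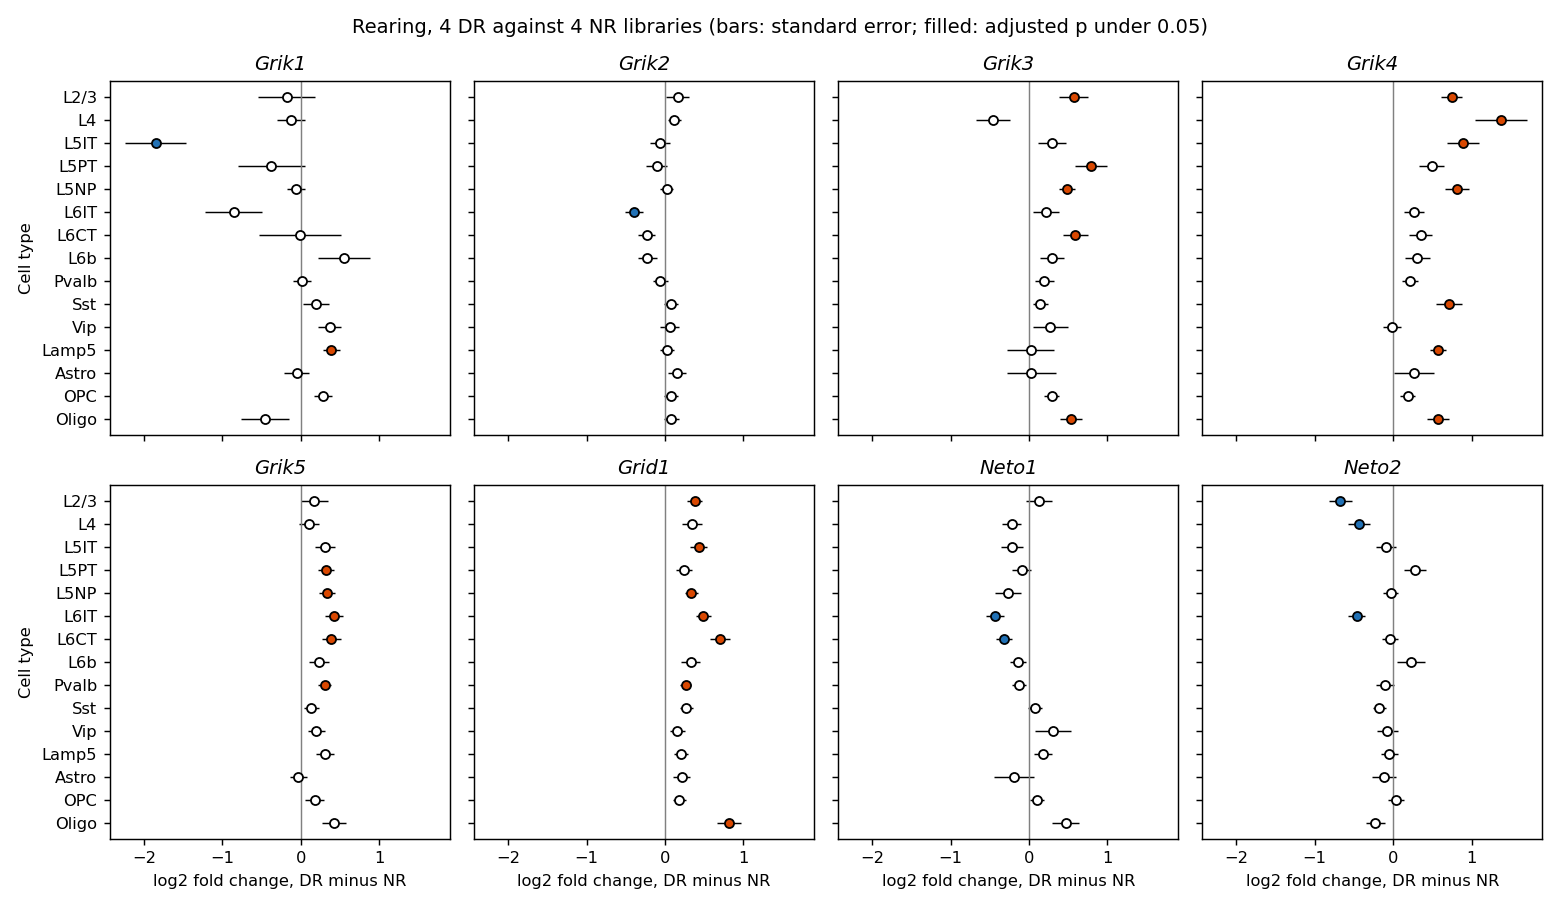
log2 fold change of each gene in each of 15 cell types, DR minus NR over 4 libraries each, with standard errors. Filled points passed the likelihood ratio test at an adjusted p under 0.05 (orange higher in DR, blue lower). Grid1 lies right of 0 in all 15 types and Grik4, Grik3 and Grik5 in 14 of 15 each, while Neto2 lies left of 0 in 12. The types share the same libraries and are not independent.

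Grik4, the high-affinity subunit GluK4, was higher in DR in 4 excitatory types (L2/3, L4, L5IT and L5NP) and in Sst, Lamp5 and oligodendrocytes. In L2/3 it was at 72.3 and 72.6 CPM in NR GR-Con, 90.7 and 80.0 in NR GR-KO, 139 and 152 in DR GR-Con and 139 and 102 in DR GR-KO. All 4 DR libraries exceeded all 4 NR libraries (0.75 ± 0.14 on the log2 scale, adjusted p = 3.4e-06, and 0.009 by quasi-likelihood). Within GR-Con alone the L2/3 difference was close to 1 on the log2 scale (0.96 ± 0.14 on the log2 scale, adjusted p = 2.8e-09, and 0.0132 by quasi-likelihood). In L5IT the values were 60.7 and 59.3 CPM in NR GR-Con, 102 and 66.7 in NR GR-KO, 153 and 139.8 in DR GR-Con and 139 and 98.3 in DR GR-KO. Rearing groups overlapped there through 1 library, NR GR-KO male, and both GR-Con DR libraries were well above both GR-Con NR libraries (1.29 ± 0.14 on the log2 scale, adjusted p = 3.1e-17, and 0.0013 by quasi-likelihood). Over all 8 L5IT libraries the difference was smaller (0.89 ± 0.20 on the log2 scale, adjusted p = 0.0012, and 0.0534 by quasi-likelihood, or 0.0374 with sex as a term).

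In L5NP, the near-projecting cells of layer 5, Grik4 was at 113 and 113 CPM in NR GR-Con, 160.5 and 105 in NR GR-KO, 257 and 208 in DR GR-Con and 227 and 163 in DR GR-KO. The lowest DR library was only just above the highest NR library (0.81 ± 0.15 on the log2 scale, adjusted p = 8e-05, and 0.0164 by quasi-likelihood), and within GR-Con the groups were further apart (1.04 ± 0.16 on the log2 scale, adjusted p = 9.2e-08, and 0.0037 by quasi-likelihood). In L4, where Grik4 is low, it was at 29.0 and 20.7 CPM in NR GR-Con, 11.4 and 12.8 in NR GR-KO, 22.7 and 72.3 in DR GR-Con and 43.9 and 37.4 in DR GR-KO. The DR GR-Con male library lay among the NR libraries, and the other 3 DR libraries lay above them (1.37 ± 0.33 on the log2 scale, adjusted p = 0.0014, and 0.0413 by quasi-likelihood). The quasi-likelihood p in L4 was 0.0511 with sex as a term. The L4 call was lost without DR GR-Con female (adjusted p = 0.0502) and without the 3 libraries poor in microglia (0.0593). Within GR-KO, L4 gave the smallest adjusted p among all pairs of these 8 genes (1.81 ± 0.16 on the log2 scale, adjusted p = 1.3e-25, and 0.0229 by quasi-likelihood).

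In L5PT, the pyramidal tract cells, Grik4 was at 53.0 and 57.1 CPM in NR GR-Con, 63.7 and 91.1 in NR GR-KO, 85.6 and 93.2 in DR GR-Con and 107 and 77.8 in DR GR-KO. DR was higher within GR-Con (0.69 ± 0.14 on the log2 scale, adjusted p = 0.0001, and 0.0359 by quasi-likelihood), a call lost without NR GR-Con male (0.127) or NR GR-Con female (0.0658), while in GR-KO both rearing groups overlapped. In Lamp5 interneurons the level was 113 and 116 CPM in NR GR-Con, 82.1 and 91.4 in NR GR-KO, 135 and 159 in DR GR-Con and 142 and 136 in DR GR-KO. NR and DR did not overlap (0.57 ± 0.11 on the log2 scale, adjusted p = 5.5e-05, and 0.0085 by quasi-likelihood, and within GR-KO 0.74 ± 0.15 on the log2 scale, adjusted p = 0.00018, and 0.0354 by quasi-likelihood). In oligodendrocytes it was 62.7 and 65.4 CPM in NR GR-Con, 43.6 and 64.2 in NR GR-KO, 87.3 and 84.0 in DR GR-Con and 88.0 and 87.7 in DR GR-KO. The groups again did not overlap (0.57 ± 0.14 on the log2 scale, adjusted p = 0.0029, and 0.0437 by quasi-likelihood). The summed level of 9 neuronal genes in oligodendrocytes was 465 to 835 CPM in DR against 473 to 1180 CPM in NR, and 0 of the 9 genes were called higher. Within GR-Con it was 465 to 835 CPM in DR against 473 to 561 CPM in NR, and the part of neuronal RNA in the oligodendrocyte calls was not tested. Pvalb (in GR-KO), Sst and L6IT (in GR-KO) were also called higher in DR, at log2 fold changes of 0.42 to 0.72. For Sst over all libraries the quasi-likelihood p was 0.118, or 0.107 with sex as a term. For L6IT it was 0.0705, or 0.0149 with sex as a term. The Pvalb and L6IT calls were lost whichever of the 4 GR-KO libraries was left out, and that of Sst over all libraries without DR GR-KO male. OPC, with the highest level, was at 397 and 455 CPM in NR GR-Con, 386 and 381 in NR GR-KO, 423 and 441 in DR GR-Con and 467 and 469.9 in DR GR-KO, and Grik4 was not called there.

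Grid1, whose product GluD1 organizes synapses through cerebellins and neurexins, had a positive DR difference in all 15 types, from 0.16 to 0.81, and passed the test in 7. In L6CT, the corticothalamic cells, it was at 365 and 349 CPM in NR GR-Con, 366 and 351 in NR GR-KO, 525 and 746 in DR GR-Con and 569 and 488 in DR GR-KO. The NR libraries lay close together and every DR library was above them (0.70 ± 0.13 on the log2 scale, adjusted p = 3e-06, and 0.0095 by quasi-likelihood). In L6IT it was 542 and 497 CPM in NR GR-Con, 518 and 481 in NR GR-KO, 719 and 674 in DR GR-Con and 760.0 and 716 in DR GR-KO. The separation was the same (0.49 ± 0.09 on the log2 scale, adjusted p = 3e-05, and 0.0154 by quasi-likelihood). L2/3 gave 372 and 349.8 CPM in NR GR-Con, 353 and 349 in NR GR-KO, 456 and 455 in DR GR-Con and 484 and 459 in DR GR-KO. The difference was smaller, again without overlap (0.38 ± 0.09 on the log2 scale, adjusted p = 0.00098, and 0.0087 by quasi-likelihood).

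Grid1 in oligodendrocytes was at 237 and 230.2 CPM in NR GR-Con, 190.2 and 325 in NR GR-KO, 399 and 426 in DR GR-Con and 435 and 461 in DR GR-KO. All DR values lay above all NR values (0.81 ± 0.15 on the log2 scale, adjusted p = 3.4e-05, and 0.018 by quasi-likelihood). In L4, Grid1 was at 457 and 423 CPM in NR GR-Con, 356 and 389 in NR GR-KO, 411 and 518 in DR GR-Con and 533 and 546 in DR GR-KO. NR and DR overlapped in GR-Con, and within GR-KO both DR libraries were higher (0.60 ± 0.14 on the log2 scale, adjusted p = 0.0019, and 0.0451 by quasi-likelihood), a call lost without DR GR-KO male (0.132) or DR GR-KO female (0.29). L5IT, L5NP and Pvalb were called as well, with log2 fold changes of 0.26 to 0.43. Those of L5NP and Pvalb were lost without the 3 libraries poor in microglia (adjusted p = 0.265 and 0.0683). The L5IT call was lost without NR GR-Con female, NR GR-KO female or DR GR-KO male and the L5NP call without NR GR-Con male or DR GR-Con female. That of Pvalb held only without NR GR-KO male or DR GR-Con male. The quasi-likelihood test called the same 7 types.

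Grik3, a channel-forming subunit, was called higher in DR in L5NP, L6CT, L5PT, L2/3 and oligodendrocytes. In L5NP it was at 538 and 695 CPM in NR GR-Con, 590.1 and 575 in NR GR-KO, 812 and 829 in DR GR-Con and 827 and 842 in DR GR-KO. The 4 DR values lay close together and above every NR value (0.48 ± 0.10 on the log2 scale, adjusted p = 0.00044, and 0.0154 by quasi-likelihood). Without the 3 libraries poor in microglia the adjusted p in L5NP was 0.066. In L6CT it was 384 and 567 CPM in NR GR-Con, 430.2 and 567 in NR GR-KO, 703 and 663 in DR GR-Con and 836 and 719 in DR GR-KO. NR and DR did not overlap (0.59 ± 0.15 on the log2 scale, adjusted p = 0.0029, and 0.0327 by quasi-likelihood). L5PT cells gave 42.1 and 58.6 CPM in NR GR-Con, 63.1 and 60.4 in NR GR-KO, 83.2 and 104 in DR GR-Con and 132 and 66.4 in DR GR-KO. Here the lowest DR library was only slightly above the highest NR library (0.79 ± 0.20 on the log2 scale, adjusted p = 0.0084, and 0.103 by quasi-likelihood), and the call was lost without NR GR-Con male (0.0952), DR GR-Con female (0.0595) or DR GR-KO male (0.109). In L2/3 the level was low and close to that of microglia, 11.8 and 12.7 CPM in NR GR-Con, 10.2 and 10.8 in NR GR-KO, 14.9 and 13.5 in DR GR-Con and 22.6 and 17.4 in DR GR-KO, from 647 to 1193 UMIs per library. DR was higher within GR-KO (0.97 ± 0.20 on the log2 scale, adjusted p = 8.6e-05, and 0.0512 by quasi-likelihood, or 0.0225 with sex as a term) and over all libraries (0.57 ± 0.18 on the log2 scale, adjusted p = 0.0173, and 0.0534 by quasi-likelihood), the latter lost without NR GR-KO male (0.0734), NR GR-KO female (0.122) or DR GR-KO male (0.0932). Without DR GR-KO male the GR-KO call in L2/3 was lost as well. Oligodendrocytes were called higher too (0.53 ± 0.14 on the log2 scale, adjusted p = 0.0077, and 0.0585 by quasi-likelihood, or 0.0121 with sex as a term), except without NR GR-Con male, NR GR-KO male or DR GR-KO female. Without the 3 libraries poor in microglia, L6CT alone among these 5 types kept its call. L4 was the exception, lower in DR within GR-Con at 15.9 and 17.7 against 8.18 and 12.1 CPM (-0.72 ± 0.22 on the log2 scale, adjusted p = 0.0374, and 0.211 by quasi-likelihood), a call that held only without DR GR-Con female.

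Grik5, the widespread high-affinity subunit, was called higher in L5PT, L5NP, L6IT, L6CT and Pvalb, with log2 fold changes of 0.31 to 0.42. It was at 107 and 129 CPM in NR GR-Con, 111 and 117 in NR GR-KO, 132 and 157 in DR GR-Con and 185 and 156 in DR GR-KO in L6IT, where it is highest (0.42 ± 0.12 on the log2 scale, adjusted p = 0.0089, and 0.0493 by quasi-likelihood, or 0.0598 with sex as a term). All 4 DR libraries were above the NR libraries there. The quasi-likelihood test called L6IT, L6CT and Pvalb, but neither L5PT (0.0977, or 0.106 with sex as a term) nor L5NP. Of these 5 calls only that of Pvalb held without the 3 libraries poor in microglia. With single libraries left out, the L6IT call was lost without NR GR-KO male, NR GR-KO female or DR GR-KO male, and the L6CT call without NR GR-Con male, NR GR-KO male or DR GR-KO male. The Pvalb call was lost without NR GR-Con male, NR GR-Con female, NR GR-KO female or DR GR-KO male. That of L5NP held only without NR GR-Con female, and that of L5PT was lost whichever library was left out.

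**Figure D3:**
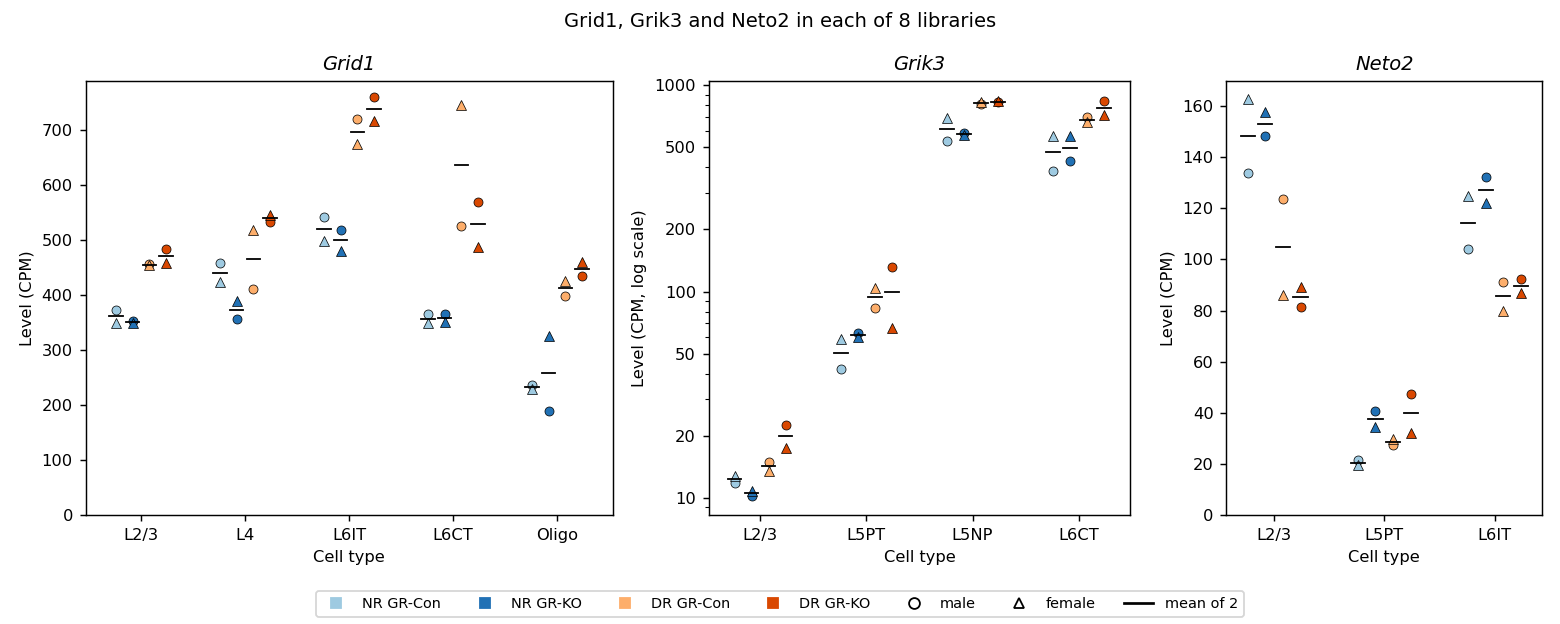
Levels of Grid1, Grik3 and Neto2 in each library (CPM, with a log axis for Grik3) in the types described in full, with group by colour, sex by marker and the group mean as a bar. Grid1 and Grik3 are higher in DR (orange), except for Grid1 in L4, where the rearing groups overlap. Neto2 is lower in DR in L2/3 and L6IT but not in L5PT, where the GR-KO libraries are highest.

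The called differences of Neto1 and Neto2 over all libraries were all towards lower levels in DR. Neto2 in L2/3 was at 134 and 163 CPM in NR GR-Con, 148 and 158 in NR GR-KO, 124 and 85.9 in DR GR-Con and 81.5 and 89.2 in DR GR-KO. Every DR library was below every NR library (-0.67 ± 0.15 on the log2 scale, adjusted p = 0.00029, and 0.0173 by quasi-likelihood). In L6IT it was 104 and 125 CPM in NR GR-Con, 132 and 122 in NR GR-KO, 91.4 and 79.7 in DR GR-Con and 92.2 and 87.1 in DR GR-KO. There was again no overlap (-0.47 ± 0.10 on the log2 scale, adjusted p = 0.00062, and 0.028 by quasi-likelihood). L4 was called lower (-0.44 ± 0.14 on the log2 scale, adjusted p = 0.0302, and 0.0698 by quasi-likelihood, or 0.0511 with sex as a term). This call was lost without the 3 libraries poor in microglia (0.199). With single libraries left out it held only without NR GR-Con female, NR GR-KO female or DR GR-Con male. In L5PT, where Neto2 is at the level of microglia, it was higher in DR within GR-Con (0.47 ± 0.14 on the log2 scale, adjusted p = 0.0333, and 0.0996 by quasi-likelihood), a call lost without NR GR-Con male (0.513) or NR GR-Con female (0.772). Neto1 was lower in DR in L6IT, at 381 and 377 CPM in NR GR-Con, 337 and 374 in NR GR-KO, 269 and 278 in DR GR-Con and 237 and 307 in DR GR-KO (-0.43 ± 0.11 on the log2 scale, adjusted p = 0.0044, and 0.04 by quasi-likelihood), and in L6CT (-0.32 ± 0.10 on the log2 scale, adjusted p = 0.0216, and 0.0349 by quasi-likelihood). Its DR and NR libraries did not overlap in either type, and the L6CT call was lost without the 3 libraries poor in microglia (0.302). The L6IT call of Neto1 was lost without DR GR-KO male, and its L6CT call held only without NR GR-Con female, DR GR-Con male or DR GR-KO female. In L6IT 5 of the 8 genes were thus called, Grid1 and Grik5 as higher in DR, and Neto1, Neto2 and Grik2 (-0.39 ± 0.11 on the log2 scale, adjusted p = 0.0127, and 0.0525 by quasi-likelihood) lower. The Grik2 call was lost without NR GR-Con male, NR GR-Con female or DR GR-KO male, and without the 3 libraries poor in microglia (0.163). Of all genes tested in L6IT, 6.8% were called.

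Grik1 was called higher in DR in Lamp5, the type with its highest level, at 1945 and 1669 CPM in NR GR-Con, 2218 and 1737 in NR GR-KO, 2551 and 2306 in DR GR-Con and 2334 and 2322 in DR GR-KO (0.39 ± 0.11 on the log2 scale, adjusted p = 0.0211, and 0.0303 by quasi-likelihood). NR and DR did not overlap, but of 8 fits that left out 1 library each the call held in only 3, those without NR GR-Con male, NR GR-KO male or DR GR-Con female. Scaling by total counts instead of TMM also ended it (log2 fold change 0.33, adjusted p = 0.0718), and the calls over all genes in Lamp5 then went from 196 higher and 126 lower to 99 higher and 164 lower. In L4, where Grik1 stood well above the microglia level, the level was 403 and 307 CPM in NR GR-Con, 201 and 252 in NR GR-KO, 223 and 342 in DR GR-Con and 194 and 255 in DR GR-KO and was not called in any comparison. All other Grik1 calls in pyramidal types were at low levels. In L5IT it was 15.5 and 9.07 CPM in NR GR-Con, 18.8 and 7.56 in NR GR-KO, 4.56 and 5.61 in DR GR-Con and 3.06 and 1.54 in DR GR-KO. Only both male NR libraries exceeded the 9.41 to 13.3 CPM of 4 microglia libraries, and none reached the fifth. Grik1 in L5IT was lower in DR over all libraries (-1.85 ± 0.38 on the log2 scale, adjusted p = 0.00027, and 0.0508 by quasi-likelihood, or 0.0368 with sex as a term). In L6IT (7.42 and 9.15 CPM in NR GR-KO against 2.15 and 3.40 CPM in DR GR-KO) and L6CT (4.96 and 4.36 CPM in NR GR-KO against 1.86 and 2.33 CPM in DR GR-KO) it was lower in DR within GR-KO, at log2 fold changes of -1.56 and -1.12 and adjusted p of 1.1e-05 and 0.00044. The quasi-likelihood test called neither (0.0655 and 0.0735), though with sex as a term it called L6IT (0.002), and both calls were lost without DR GR-KO male (0.0641 and 0.198). Those values rest on 12 to 307, 28 to 185 and 36 to 207 UMIs per library in L5IT, L6IT and L6CT, and the part of free RNA from interneurons in them was not tested.

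Within each genotype the comparisons share libraries with the one above. In GR-Con 12 of 120 pairs were called (10.0%, background 2.25%), 10 higher (background 1.41%) and 2 lower (background 0.84%). In GR-KO 30 of 143 pairs in 18 types were called (21%, background 3.66%), 14 higher (background 1.69%) and 16 lower (background 1.96%). The quasi-likelihood test called 5 (background 0.495%) and 10 pairs (background 0.857%), and DESeq2 called 12 (background 1.83%) and 28 (background 3.28%). Among the 16 lower pairs, 8 were in vascular and leptomeningeal types, 5 of them in VLMC.

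In VLMC, the fibroblast-like cells of the meninges and vessels, Grik1, Grik2, Grid1, Neto1 and Neto2 were all lower in DR GR-KO than in NR GR-KO. Grik2 was at 739 and 361 CPM in NR GR-KO against 139.8 and 164 CPM in DR GR-KO (-2.08 ± 0.44 on the log2 scale, adjusted p = 3.7e-05, and 0.0095 by quasi-likelihood). Grid1 was at 172 and 230.0 CPM in NR GR-KO against 63.1 and 100.1 CPM in DR GR-KO (-1.53 ± 0.37 on the log2 scale, adjusted p = 0.00041, and 0.0168 by quasi-likelihood). Both groups were well apart. Grik1 was at 188 and 135 CPM in NR GR-KO against 67.6 and 3.34 CPM in DR GR-KO (-2.53 ± 0.68 on the log2 scale, adjusted p = 0.002, and 0.0394 by quasi-likelihood), and Neto2 at 119 and 71.1 CPM in NR GR-KO against 31.6 and 23.4 CPM in DR GR-KO (-2.01 ± 0.49 on the log2 scale, adjusted p = 0.00049, and 0.0172 by quasi-likelihood). The Grid1 call was lost without DR GR-KO male (0.0883), that of Neto2 without DR GR-KO female (0.0509) and that of Neto1 without NR GR-KO male or DR GR-KO male. The fits had 20 to 65 nuclei per library. The summed level of the 9 neuronal genes in VLMC moved with them, from 8623 to 9551 CPM in NR GR-KO to 2196 to 2350 CPM in DR GR-KO, and all 9 were called lower, where 13% of all genes tested in VLMC were. The part of neuronal RNA in the VLMC calls was not tested. Scaling by total counts instead of TMM moved the median of all genes in this VLMC fit by 0.26, and the log2 fold changes of the 5 genes then ran from -2.24 to -1.27, with that of Neto1 no longer called (0.0819).

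The genotype comparison asks what loss of GR in astrocytes, from an astrocyte promoter, did to each cell type. In NR, 8 of 136 pairs in 17 types were called (5.88%, background 0.804%), 6 higher (background 0.491%) and 2 lower (background 0.313%) in GR-KO. Of the 8, 4 were in astrocytes, where 3.73% of all genes tested were called higher. The quasi-likelihood test called 3 pairs (background 0.361%), all in astrocytes, and DESeq2 4 (background 0.336%). Grik1 in astrocytes was at 12.7 and 16.1 CPM in NR GR-Con against 32.2 and 30.7 CPM in NR GR-KO, higher in GR-KO without overlap (1.06 ± 0.19 on the log2 scale, adjusted p = 9.1e-07, and 0.0065 by quasi-likelihood). Neto1 was at 14.0 and 9.86 CPM in NR GR-Con against 23.0 and 23.0 CPM in NR GR-KO (0.88 ± 0.20 on the log2 scale, adjusted p = 0.00027, and 0.0218 by quasi-likelihood), and Neto2 at 23.6 and 20.3 CPM in NR GR-Con against 44.8 and 34.9 CPM in NR GR-KO (0.79 ± 0.19 on the log2 scale, adjusted p = 0.00068, and 0.0197 by quasi-likelihood). Grik4 was also called (0.80 ± 0.22 on the log2 scale, adjusted p = 0.0072, and 0.0502 by quasi-likelihood, or 0.00055 with sex as a term). The calls of Neto1 and Neto2 were lost without NR GR-Con female (adjusted p = 0.0787 and 0.056), and that of Grik4 held only without NR GR-KO male.

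Of the 15 types, astrocytes were the lowest for Grik4 and Neto1 and the next to lowest for Neto2, at shares of nuclei with a UMI under or close to those of microglia. The summed level of the 9 neuronal genes in astrocytes was 705 to 907 CPM in NR GR-Con and 1337 to 1359 CPM in NR GR-KO, and 6 of the 9 were called higher. In oligodendrocytes the same sum was 473 to 561 CPM in NR GR-Con and 930 to 1180 CPM in NR GR-KO, with 7 of 9 called higher. The part of neuronal RNA in the astrocyte calls was not tested. In DR the neuronal sum was no higher in GR-KO (839 to 893 CPM) than in GR-Con (856 to 1246 CPM), while Grik1 was at 16.1 and 16.5 CPM in DR GR-Con against 29.7 and 21.1 CPM in DR GR-KO and Neto2 at 25.5 and 22.6 CPM in DR GR-Con against 30.2 and 29.4 CPM in DR GR-KO, both higher in GR-KO without overlap though not called within DR. Over all 8 libraries Grik1 in astrocytes was higher in GR-KO by 0.86 on the log2 scale (SE 0.16, adjusted p = 1.3e-05, and 0.0106 by the quasi-likelihood test), and every fit that left out 1 library kept the call. The 4 GR-KO libraries ranged from 21.1 to 32.2 CPM and the 4 GR-Con libraries from 12.7 to 16.5 CPM, on 93 to 356 UMIs each. In microglia Grik1 was at 9.41 CPM in NR GR-Con female, 44.2 CPM in NR GR-KO female, 13.3 CPM in DR GR-Con male and 9.49 and 12.2 CPM in DR GR-KO, and the neuronal sum was 1335 and 2529 CPM in those NR libraries. All 8 astrocyte values were under the highest of these, which comes from 1 library. The other microglia libraries were at 9.41 to 13.3 CPM, under all 4 GR-KO astrocyte values, while GR-Con astrocytes lay in or above that range. The thinned share of nuclei with a Grik1 UMI was 6.12% in astrocytes and 2.79% in microglia, or 1.68% in microglia without NR GR-KO female. For comparison, Grid1, at 499 ± 48.4 CPM in astrocytes, and Grik2, at 431 ± 40.9 CPM, were not called in NR or in DR.

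**Figure D4:**
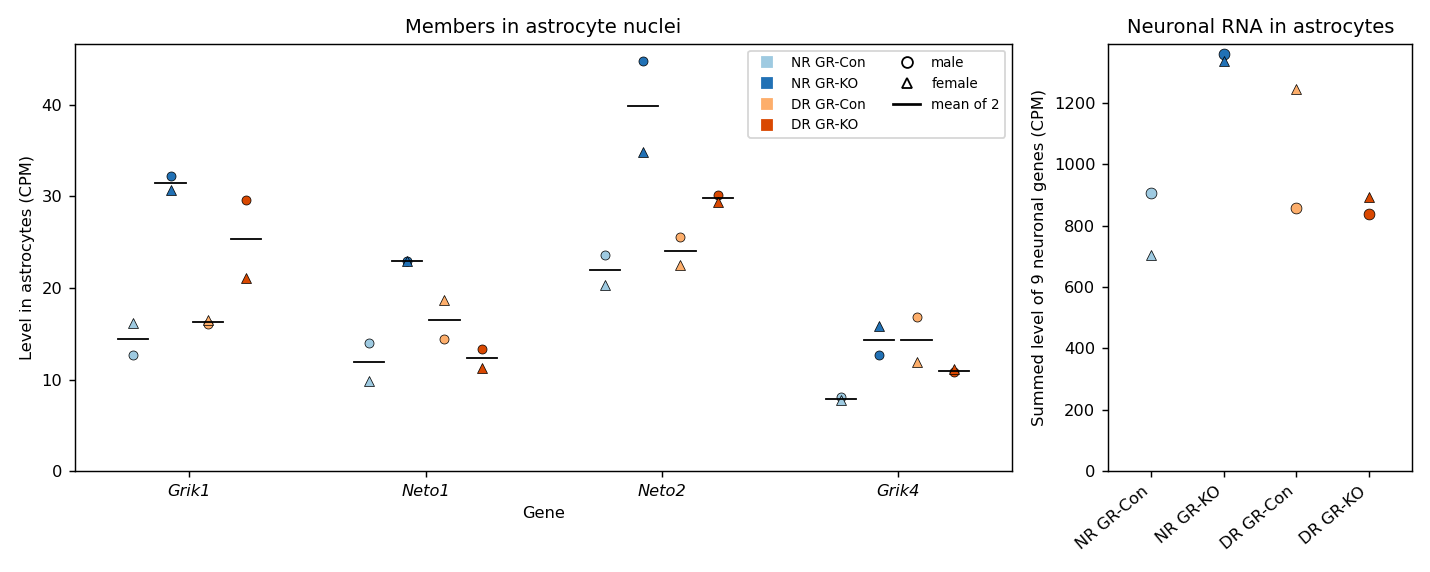
Left, levels of Grik1, Neto1, Neto2 and Grik4 in astrocyte nuclei of each library (CPM), with group by colour, sex by marker and the group mean as a bar. Right, the summed level of 9 neuronal genes in the same nuclei (CPM): NR GR-KO is highest in both panels for Grik1, Neto1 and Neto2, and within DR, where no astrocyte difference of these genes was called, the GR-KO libraries are higher for Grik1 and Neto2. The part of neuronal RNA was not tested.

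Outside astrocytes, Neto2 in L5PT was at 21.4 and 19.5 CPM in NR GR-Con, 40.7 and 34.4 in NR GR-KO, 27.5 and 29.7 in DR GR-Con and 47.6 and 32.2 in DR GR-KO. It was higher in GR-KO in NR (0.91 ± 0.15 on the log2 scale, adjusted p = 1.9e-06, and 0.186 by quasi-likelihood, or 0.0188 with sex as a term) and over all libraries (0.69 ± 0.14 on the log2 scale, adjusted p = 0.0024, and 0.32 by quasi-likelihood). The call in NR was lost without NR GR-Con male (0.137) or NR GR-Con female (0.369). The NR GR-KO female library had only 59 L5PT nuclei, and the call over all libraries was lost without NR GR-Con male (0.0627), NR GR-Con female (0.0578), NR GR-KO male (0.0747) or DR GR-KO male (0.101). Without the 3 libraries poor in microglia its adjusted p was 0.475. Grik4 in L4 was lower in NR GR-KO, at 29.0 and 20.7 CPM in NR GR-Con against 11.4 and 12.8 CPM in NR GR-KO (-1.04 ± 0.21 on the log2 scale, adjusted p = 0.0015, and 0.898 by quasi-likelihood), a call lost without NR GR-Con male (0.33) or NR GR-KO male (0.0598). Grik4 in Pvalb (-0.48 ± 0.12 on the log2 scale, adjusted p = 0.0185, and 0.322 by quasi-likelihood) and Grik1 in L6CT (1.39 ± 0.27 on the log2 scale, adjusted p = 0.00068, and 1 by quasi-likelihood), the latter at 2.13 and 1.38 CPM in NR GR-Con against 4.96 and 4.36 CPM in NR GR-KO, were called too. With sex as a term the quasi-likelihood p for Grik4 in Pvalb was 0.015. The Pvalb call was lost whichever of the 4 NR libraries was left out, and that of Grik1 without NR GR-Con female (0.524).

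In DR, 3 of 120 pairs were called (2.5%, background 0.513%) and 0 by the quasi-likelihood test of edgeR (background 0.00431%), with 14 at an unadjusted p under 0.05 (background 6.16%) and 3 by DESeq2 (background 0.372%). Grik1 in L2/3 was lower in GR-KO, at 6.89 and 5.79 CPM in DR GR-Con against 2.68 and 2.93 CPM in DR GR-KO (-1.12 ± 0.22 on the log2 scale, adjusted p = 0.00054, and 0.407 by quasi-likelihood), a call lost without DR GR-KO male (0.256) or DR GR-KO female (0.104). Grik3 in L5IT (0.53 ± 0.14 on the log2 scale, adjusted p = 0.0361, and 0.189 by quasi-likelihood) and Neto2 in L5IT (0.62 ± 0.15 on the log2 scale, adjusted p = 0.0082, and 0.18 by quasi-likelihood) were higher. The Grik3 call was lost whichever of the 4 DR libraries was left out, and that of Neto2 held only without DR GR-Con male. Over all 8 libraries 3 of 120 pairs were called for genotype (2.5%, background 0.395%), all higher in GR-KO (background 0.174%), namely Grik1 and Neto2 in astrocytes and Neto2 in L5PT. The quasi-likelihood test called 1 of them (background 0.196%), Grik1 in astrocytes, and with sex as a term also Neto2 in astrocytes (0.0367). Neto2 in astrocytes had a log2 fold change of 0.56 (SE 0.15, adjusted p = 0.008), lost without NR GR-Con male (0.0783), NR GR-Con female (0.101) or NR GR-KO male (0.0736), and without the 3 libraries poor in microglia (0.0734).

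The interaction tests whether the genotype difference in NR differed from that in DR, and 2 of 120 pairs were called (1.67%, background 0.181%, split into 0.139% positive and 0.0423% negative), with 0 called by quasi-likelihood in edgeR (background 0.00276%), 1 by DESeq2 (background 0.116%) and 15 at an unadjusted p under 0.05 (background 5.4%). Grik1 in L2/3 was at 4.46 and 2.98 CPM in NR GR-Con, 6.13 and 6.18 in NR GR-KO, 6.89 and 5.79 in DR GR-Con and 2.68 and 2.93 in DR GR-KO. GR-KO was the higher group in NR and the lower one in DR, with no overlap in either rearing (interaction 1.81 on the log2 scale, SE 0.33, adjusted p = 8.9e-05, and 0.346 by the quasi-likelihood test). These values came from 141 to 474 UMIs per library and lay under the microglia level. Neto1 in astrocytes was at 14.0 and 9.86 CPM in NR GR-Con, 23.0 and 23.0 in NR GR-KO, 14.4 and 18.6 in DR GR-Con and 13.4 and 11.3 in DR GR-KO. GR-KO was the higher group in NR and the lower one in DR (interaction 1.28, SE 0.33, adjusted p = 0.0279, and 0.337 by the quasi-likelihood test), a call that held only without NR GR-Con male, DR GR-Con male or DR GR-Con female. Within GR-KO, Neto1 in astrocytes was lower in DR than in NR (-0.83 ± 0.18 on the log2 scale, adjusted p = 0.00045, and 0.0212 by quasi-likelihood), a call lost without DR GR-KO male (0.0523) or DR GR-KO female (0.205). The neuronal sum fell along with it, from 1337 to 1359 CPM to 839 to 893 CPM, with 7 of 9 genes called lower. For Grik4, Grid1, Grik3, Grik5 and Grik2 no interaction was called in any type.

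Of 20 partner genes, namely neurexins, cerebellins and C1q-like ligands, scaffold and trafficking proteins of kainate receptors and the enzymes that edit their transcripts, 19 were in the table. For rearing over all libraries 13 of 242 partner pairs were called (5.37%, close to the background of 5.4%), 9 higher and 4 lower. Those with the smallest adjusted p were Nrxn2, a presynaptic neurexin, in L6CT and Pvalb, and Dlg1, which encodes the scaffold SAP97, in L6CT. Nrxn2 in L6CT was at 62.8 and 67.0 CPM in NR GR-Con, 76.8 and 66.9 in NR GR-KO, 78.5 and 105 in DR GR-Con and 109 and 102 in DR GR-KO. Every DR library was higher (0.54 ± 0.11 on the log2 scale, adjusted p = 5.4e-05, and 0.0111 by quasi-likelihood). Dlg1 in L6CT was at 559 and 622 CPM in NR GR-Con, 506 and 598 in NR GR-KO, 449.8 and 419.8 in DR GR-Con and 369.8 and 419 in DR GR-KO. Every DR library was lower (-0.45 ± 0.11 on the log2 scale, adjusted p = 0.0015, and 0.0182 by quasi-likelihood). In Pvalb Nrxn2 was at 68.8 and 63.9 CPM in NR GR-Con, 69.6 and 62.9 in NR GR-KO, 77.6 and 85.9 in DR GR-Con and 94.2 and 80.2 in DR GR-KO (0.35 ± 0.08 on the log2 scale, adjusted p = 0.0029, and 0.0317 by quasi-likelihood), with no overlap, though the call was lost without DR GR-KO male. Within GR-Con 7 of 241 partner pairs were called (2.9%, background 2.25%), and within GR-KO 13 of 280 (4.64%, background 3.66%).

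C1ql3, which encodes a secreted ligand that bridges kainate receptors and neurexins, was at 2.35 and 3.34 CPM in NR GR-Con, 29.1 and 4.53 in NR GR-KO, 27.9 and 29.1 in DR GR-Con and 23.2 and 7.06 in DR GR-KO in L5IT (3.32 ± 0.23 on the log2 scale, adjusted p = 2.1e-45, and 0.00049 by quasi-likelihood within GR-Con). Both NR GR-Con libraries, NR GR-KO female and DR GR-KO female were low, and NR GR-KO male was at the level of the other 3 DR libraries. Grip1, a scaffold that binds glutamate receptors, was at 134 and 156 CPM in NR GR-Con, 276 and 152 in NR GR-KO, 328 and 333 in DR GR-Con and 280.0 and 203 in DR GR-KO (1.19 ± 0.15 on the log2 scale, adjusted p = 2.1e-12, and 0.0026 by quasi-likelihood within GR-Con), with the same NR library within the DR range. That library was also the one that bridged the rearing groups for Grik4 in L5IT. In L5PT, C1ql3 was at 19.2 and 14.7 CPM in NR GR-Con, 35.4 and 36.3 in NR GR-KO, 31.4 and 34.0 in DR GR-Con and 24.0 and 14.2 in DR GR-KO. It was higher in DR within GR-Con (0.94 ± 0.17 on the log2 scale, adjusted p = 6.5e-06, and 0.04 by quasi-likelihood), and higher in GR-KO in NR (1.08 ± 0.18 on the log2 scale, adjusted p = 3.8e-06, and 0.219 by quasi-likelihood, or 0.0174 with sex as a term), both calls being lost without NR GR-Con female. Within GR-KO, C1ql3 in L2/3 fell from 29.5 and 26.2 to 15.2 and 11.1 CPM (-1.04 ± 0.20 on the log2 scale, adjusted p = 3.5e-05, and 0.0512 by quasi-likelihood, or 0.0134 with sex as a term), and in VLMC Adarb1, an RNA editing enzyme, was lower together with the neuronal genes, at a log2 fold change of -1.77.

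For genotype, 3 of 268 partner pairs were called in NR (1.12%, background 0.804%), 3 of 239 in DR (1.26%, background 0.513%) and 2 of 242 over all libraries (0.826%, background 0.395%). In astrocytes Nrxn2 was at 301 and 236 CPM in NR GR-Con, 197 and 173 in NR GR-KO, 244 and 228 in DR GR-Con and 195 and 195 in DR GR-KO, lower in GR-KO over all libraries (-0.43 ± 0.13 on the log2 scale, adjusted p = 0.0204, and 0.0566 by quasi-likelihood). Grip1 in astrocytes was at 511 and 368 CPM in NR GR-Con, 649 and 617 in NR GR-KO, 466 and 542 in DR GR-Con and 669 and 679.7 in DR GR-KO, higher in GR-KO (0.45 ± 0.13 on the log2 scale, adjusted p = 0.0103, and 0.0381 by quasi-likelihood). The 4 GR-KO libraries did not overlap the 4 GR-Con libraries for either gene. The Nrxn2 call held only without DR GR-Con male, DR GR-Con female or DR GR-KO female, and that of Grip1 only without NR GR-Con male, DR GR-Con male or DR GR-Con female. C1ql3 in astrocytes was also called in NR, at 5.07 and 6.42 CPM in NR GR-Con against 15.1 and 8.80 CPM in NR GR-KO, with adjusted p of 0.114 by quasi-likelihood and 0.168 in DESeq2. With sex as a term the quasi-likelihood test called it (0.00027). The call was lost without NR GR-Con male or NR GR-KO male. The 3 DR calls were of low genes, namely Cbln4 in L4, at 0.644 and 0.855 CPM in DR GR-Con against 1.96 and 1.88 CPM in DR GR-KO, and C1ql3 in Pvalb (2.35 and 3.37 CPM in DR GR-Con against 0.623 and 0.759 CPM in DR GR-KO) and L4 (9.64 and 8.32 CPM in DR GR-Con against 5.79 and 4.22 CPM in DR GR-KO), with quasi-likelihood p of 0.193, 0.321 and 0.254, in that order. Each was lost without DR GR-KO male or DR GR-KO female, that of C1ql3 in Pvalb also without DR GR-Con female and that in L4 without DR GR-Con male.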

How the data were processed

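Single nuclei of mouse V1 were profiled by 10x 3′ sequencing. Per the labels and methods, the authors aligned reads with Cell Ranger 8.0.1 to mm10 with EGFP added, removed nuclei with very few or very many counts and predicted doublets, and clustered and named the nuclei in Seurat 5.3.0. The deposited values were UMI counts per gene and nucleus, with the authors' cell types, which were used as given. The authors also deposited the percent of UMIs from mitochondrial genes per nucleus, which was not needed here. Library names give the group and the sex but not which of the labels' 2 replicates a library is, so replicate numbers were not used. Counts were summed here per library and cell type, for types with at least 10 nuclei in each library of a fit.

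Of the 7 comparisons made, 4 used 4 libraries each, namely genotype within each rearing and rearing within each genotype, and 3 used all 8, namely the interaction and both main effects. The test was the likelihood ratio test of edgeR 4.0.16 in R 4.3.3 (filterByExpr, TMM, two-sided), as in the study, with Benjamini-Hochberg adjustment over all genes of a type and a threshold of 0.05. A pair is a gene in a cell type, and every adjusted p with no other name is from this test. The edgeR quasi-likelihood F-test and DESeq2 1.42.0 stand beside it. SE is the log2 fold change divided by the root of the likelihood ratio statistic. Scripts were tested on simulated data.

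The 8 genes, the partner list, the neuronal list (Snap25, Syt1, Rbfox3, Slc17a7, Nrgn, Camk2a, Meg3, Gria1 and Grin2a) and the markers were chosen with earlier results of these data known. Pairs called with support from a second test were described in full up to 30, by smallest adjusted p, and of the 20 partners at most 3 pairs per comparison were named. Alternatives were other scalings, no filter, sex as a term, 1 fit for all libraries and each library left out. Leaving out the 3 libraries poor in microglia, and sex with the quasi-likelihood test, were added after seeing the data. The result of 1 partner gene is not reported here.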

Additional observations from a re-analysis of the deposited data

Results flagged for a closer look

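In 5 cases among 52 groups of 4 libraries of 1 rearing, 1 library stood apart from the other 3 by Dixon's criterion, which chance meets in about 1 of 20 groups. Grid1 in L2/3 was at 484 CPM in DR GR-KO male, the highest of the DR libraries. Grik1 in L6CT was at 5.69 CPM in DR GR-Con female, the highest of the DR libraries. Grik4 in L5NP was at 160.5 CPM in NR GR-KO male, the highest of the NR libraries. Grik4 in oligodendrocytes was at 43.6 CPM in NR GR-KO male, the lowest of the NR libraries, and at 84.0 CPM in DR GR-Con female, the lowest of the DR libraries.

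The genotype difference in NR differed from that in DR by an interaction test for 3 pairs. These were 2 of 120 pairs of the 8 genes (1.67%) and 1 of 243 partner pairs (0.412%), against a background of 0.181%. Grik1 in L2/3 had an interaction of 1.81 on the log2 scale, and every fit that left out 1 library kept the call. Neto1 in astrocytes had an interaction of 1.28, kept in 3 of 8 such fits. C1ql3 in L5PT had an interaction of 1.83. The quasi-likelihood test of edgeR called none of the 3 (adjusted p = 0.346, 0.337 and 0.269).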

How the results depend on the processing

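No paired analysis was possible because the deposited library names carry no replicate numbers, so the numbers of the labels could not serve as a block. Every group held 1 male and 1 female. Sex was not a term in the main fits or in the fits that left out a library. It was a term only in the alternative fits named for it. No called value of the named pairs changed sign in any setting. The quasi-likelihood F-test lowered the pairs called to 3 for genotype in NR, 0 in DR, 5 for rearing in GR-Con, 10 in GR-KO, 0 for the interaction and 1 for genotype over all. DESeq2 gave 4 for genotype in NR and 1 for the interaction, and 1 fit for all libraries gave 5 each for genotype in NR and rearing in GR-Con (0.424% and 1.77% of all pairs). Sex as a term raised the pairs called to 11 for genotype in NR, 16 for rearing in GR-Con, 44 in GR-KO and 4 for the interaction, where 1.84%, 2.997%, 6.18% and 0.590% of all pairs were called. Sex with the quasi-likelihood test gave 6, 9, 37 and 0 in that order (1.14%, 0.840%, 3.47% and 0.00965% of all pairs) and 1 for genotype in DR (0.280%). For the partner genes it gave 7 for genotype in NR, 5 for rearing in GR-Con and 21 in GR-KO, where the quasi-likelihood test without sex gave 1, 4 and 6. Leaving out the 3 libraries poor in microglia gave 5 interactions (1.00%). With each library left out in turn the pairs called ranged from 2 to 16 for genotype in NR, 0 to 10 in DR, 3 to 20 for rearing in GR-Con, 7 to 32 in GR-KO, 1 to 5 for the interaction, 1 to 5 for genotype over all and 17 to 33 for rearing over all. Of all pairs, 0.389% to 2.16%, 0.116% to 3.23%, 0.750% to 5.20%, 0.826% to 6.15%, 0.0717% to 0.984%, 0.258% to 0.760% and 2.47% to 6.08% were called there, in the same order. A group left with 1 library is assumed there to vary like the others. Scaling by total counts ended the calls of Grik4 in L6IT and Pvalb within GR-KO, of Grid1 in L2/3 and Grik1 in SMC-Peri within GR-KO and of Grik5 in L5NP over all libraries. The cause of these shifts was not tested. With the 50 most abundant features out of the total, the highest levels were 2605 CPM for Grik1, 4699 for Grik2, 908 for Grik3, 531 for Grik4, 189 for Grik5, 1549 for Grid1, 1288 for Neto1 and 851 for Neto2. By Spearman's rho the likeness was 0.81 for Kcnip1, 0.70 for Ndst4, 0.89 for Rufy1, 0.78 for Csmd3, 0.76 for Cacnb1, 0.72 for Snx10, 0.53 for Zfp560, 0.80 for Nup210 and 0.76 for Cntn4. Over neuron types alone Pearson's r was 0.78 for Csmd3, 0.71 for Elfn2, 0.80 for Cacnb1, 0.77 for Snx10, 0.78 for Zfp560, 0.82 for Nup210, 0.74 for Cntn4 and 0.72 for Olfm3. Depth limits the pairs at a few CPM, which rest on few UMIs per library.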
